A study of Mus musculus with 12 samples.

Results

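Cultured microglia, which are the macrophages resident in brain tissue, were compared after exposure to the supernatant of Th1 cultures and after exposure to the supernatant of Th17 cultures. The comparison takes the 8 arrays labelled Th1 supernatant or Th17 supernatant from the 12 arrays of the series, 4 in each group. They come from independent experiments numbered 12, 13, 14 and 16, each of which gave 1 array to each group. The microglia were shaken off mixed glial cultures made from the brains of newborn C57BL/6 mice, no group is described as carrying a genetic change, and RNA was taken at 16 h. The 4 remaining arrays, labelled untreated, come from microglia given T cell medium alone and serve here as the level from which either group could depart. Per the study's methods the Th1 supernatant was the cell-free medium of C57BL/6 CD4+ T cells that had been polarised with interleukin-12 and an antibody to interleukin-4 and then restimulated through CD3 and CD28. How the Th17 cultures were made is not given in the sources used here. Each supernatant is a mixture, so a difference between the groups belongs to the whole supernatant and to no single cytokine.

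Th1 cells are known for secreting interferon-gamma and Th17 cells for secreting interleukin-17. Interferon-gamma binds the receptor chains Ifngr1 and Ifngr2, whose kinases Jak1 and Jak2 activate transcription factors of the STAT family. STAT dimers bind gamma-activated sites (GAS), while interferon regulatory factors bind interferon-stimulated response elements (ISRE). In macrophages this pathway is known for inducing GTPases that act on vacuolar pathogens, antigen presentation, T cell attracting chemokines and nitric oxide synthesis. Interleukin-17 signals through Il17ra and Il17rc to NF-kappaB and C/EBP factors and is best known from epithelial and stromal cells and astrocytes.

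Levels are given as log2 of the normalised array signal, with a floor of 15 signal units that equals 3.91 on this scale. Runs of 4 values follow the order of experiments 12, 13, 14 and 16. Differences are Th1 minus Th17 on the log2 scale ± SE of the limma fit with n = 4 arrays per group, so a positive value means more transcript signal with Th1 supernatant. A gene was called where the Benjamini-Hochberg adjusted p was under 0.01 and the difference exceeded 2-fold. Where none of the dimmer group's arrays measured a gene well above background, the difference is stated as at least N-fold. In RNA from a whole culture, fewer cells of a type and less RNA per cell cannot be told apart.

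On the 8 arrays 21486 to 24141 of 39429 probes were well above background. Their share was 57.91% ± 2.81 with Th1 and 59.23% ± 2.37 with Th17 supernatant (SD, n = 4), a difference of -1.32 percentage points (two-sided exact permutation test, p = 0.514, where 4 against 4 arrays allow no p below 0.0286). The defining macrophage and microglia transcripts were bright in both groups: Csf1r, the receptor of the macrophage growth factor, lay at 17.72 to 18.05 with Th1 and at 17.94 to 18.34 with Th17 supernatant, and Itgam at 14.48 to 14.53 and 14.28 to 14.70. Of 10 measured identity genes 8 were not called, and Cx3cr1 and Adgre1 were lower with Th1 supernatant, Adgre1 with a call that 10 settings lost.

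The array Th17 13 stood apart from the other 3 Th17 arrays. It was the highest Th17 array for 642 of the 1365 genes called higher with Th1 supernatant (49.9% of those with a single highest array, against 27.8% over all genes tested). Its mean log2 signal over the 10 measured guanylate-binding proteins was 8.24, against 6.37, 7.05 and 6.33 on the other Th17 arrays and 13.85 to 14.28 on the Th1 arrays. Over the 200 genes that were more than 16-fold higher with Th1 supernatant it covered a median of 12.1% of the distance from the other Th17 arrays to the Th1 mean, and it reached the Th1 range for 0 of them. It also had the highest 75th percentile of signal before scaling, 2214.5 units against 1210.4 to 1628.3 on the other Th17 arrays. Why this array differed was not tested. Without it 1402 genes were called higher and 1532 lower. Among 185 genes described here the difference then moved by over 1.5 times for 20, in each case away from 0. Values without it are 11.22 for Gbp4, 10.23 for Serpina3f, 9.97 for Ly6a, 9.54 for Gbp6, 8.28 for Gbp2, 7.70 for Cfb, 6.95 for H2-Aa, 6.64 for Oas3, 6.54 for Ccl5 and 6.44 for Cst7. They are 5.76 for Irf7, 5.23 for Isg15, 5.18 for Ifit1, 3.46 for C3, 3.30 for Fpr2, -5.60 for Gsta3 and -3.74 for Gdf15, and those of Cxcl9, Ccl8 and Tgtp2 stand beside these genes. Of the genes followed through all 23 alternative settings (left-out arrays, blocks, filters, scaling and background), 10 named here missed the adjusted p threshold in limma without it, at 0.0102 for Cebpb, 0.011 for Hgf, 0.0112 for Myc, 0.0119 for Il16, 0.0127 for Entpd1, 0.0129 for Fos, 0.0135 for Nr4a1, 0.0143 for Tmem119, 0.0151 for Adgre1 and 0.0221 for Maff, and H2ac1 missed the 2-fold threshold.

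The first result is the size and the side of the difference. Of 19801 genes tested, 2931 (14.8%) were called: 1365 (6.89%) were higher and 1566 (7.91%) lower with Th1 than with Th17 supernatant. The called rises were larger: 638 exceeded 4-fold, 200 exceeded 16-fold and 70 exceeded 64-fold, whereas 530, 49 and 4 of the called falls did. In 1356 of the 1365 rises and 1563 of the 1566 falls all 4 same-numbered pairs of arrays differed in the called direction. The arrays lay on 3 slides, each holding Th1 and Th17 arrays, and within every slide all called genes with values there differed in the called direction, with medians of 2.19, 1.73 and 1.76 for the rises and -1.74, -1.60 and -1.34 for the falls. These genes were called from the same arrays, so the agreement of pairs and slides largely follows from the call. The median over all genes tested was -0.04. The 4 Th1 and 4 Th17 arrays did not overlap for 41.1% of all genes tested (18.6% with Th1 above and 22.6% with Th1 below), so a gap between the groups alone is common here.

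**Figure D1:**
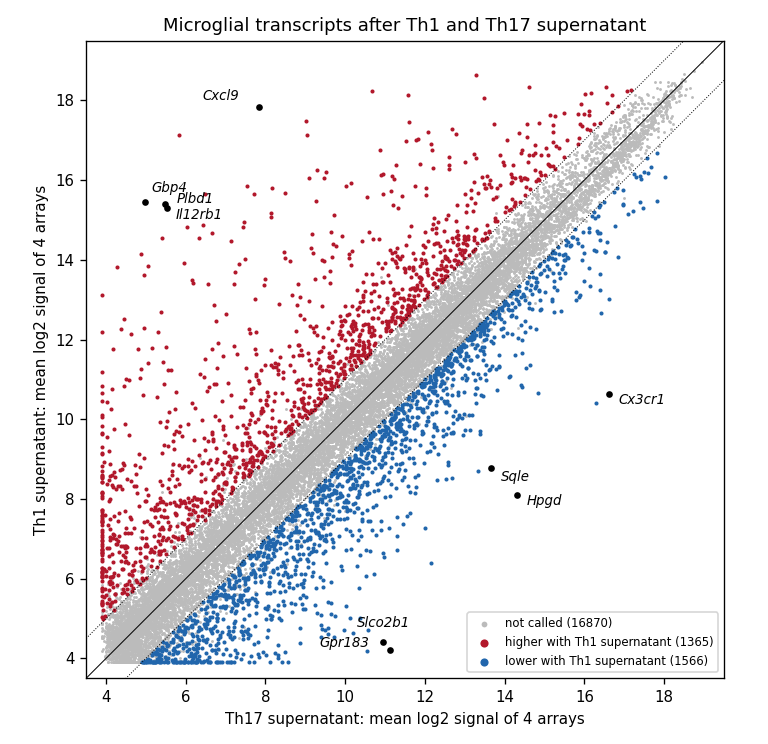
Mean log2 signal of 4 arrays with Th17 supernatant (x axis) against 4 arrays with Th1 supernatant (y axis) for 19801 genes, with called genes in colour, the solid line at no difference and the dotted lines at a 2-fold difference. The 1365 genes above the diagonal reach farther from it than the 1566 below it, up to 10.46 for Gbp4 and -6.92 for Slco2b1 among the genes named here.

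Almost all of this difference lay on the Th1 side. The untreated mean was nearer to the Th17 mean than to the Th1 mean for 1364 of the 1365 rises and 1564 of the 1566 falls. The Th17 and untreated arrays overlapped for 1344 rises and 1552 falls. Over all genes tested the Th17 arrays lay all above the untreated arrays for only 0.53% and all below for 0.444%. Such overlap is thus common for any gene here. The Th1 arrays all lay above the untreated arrays for 1334 rises and all below for 1468 falls. The matching Th1 shares over all genes are not given here. Across genes, Th17 arrays correlated with untreated arrays at 0.9801 to 0.9962 and with Th1 arrays at 0.9349 to 0.9617. These coefficients run over genes, which share arrays and regulation, and only describe the libraries.

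**Figure D2:**
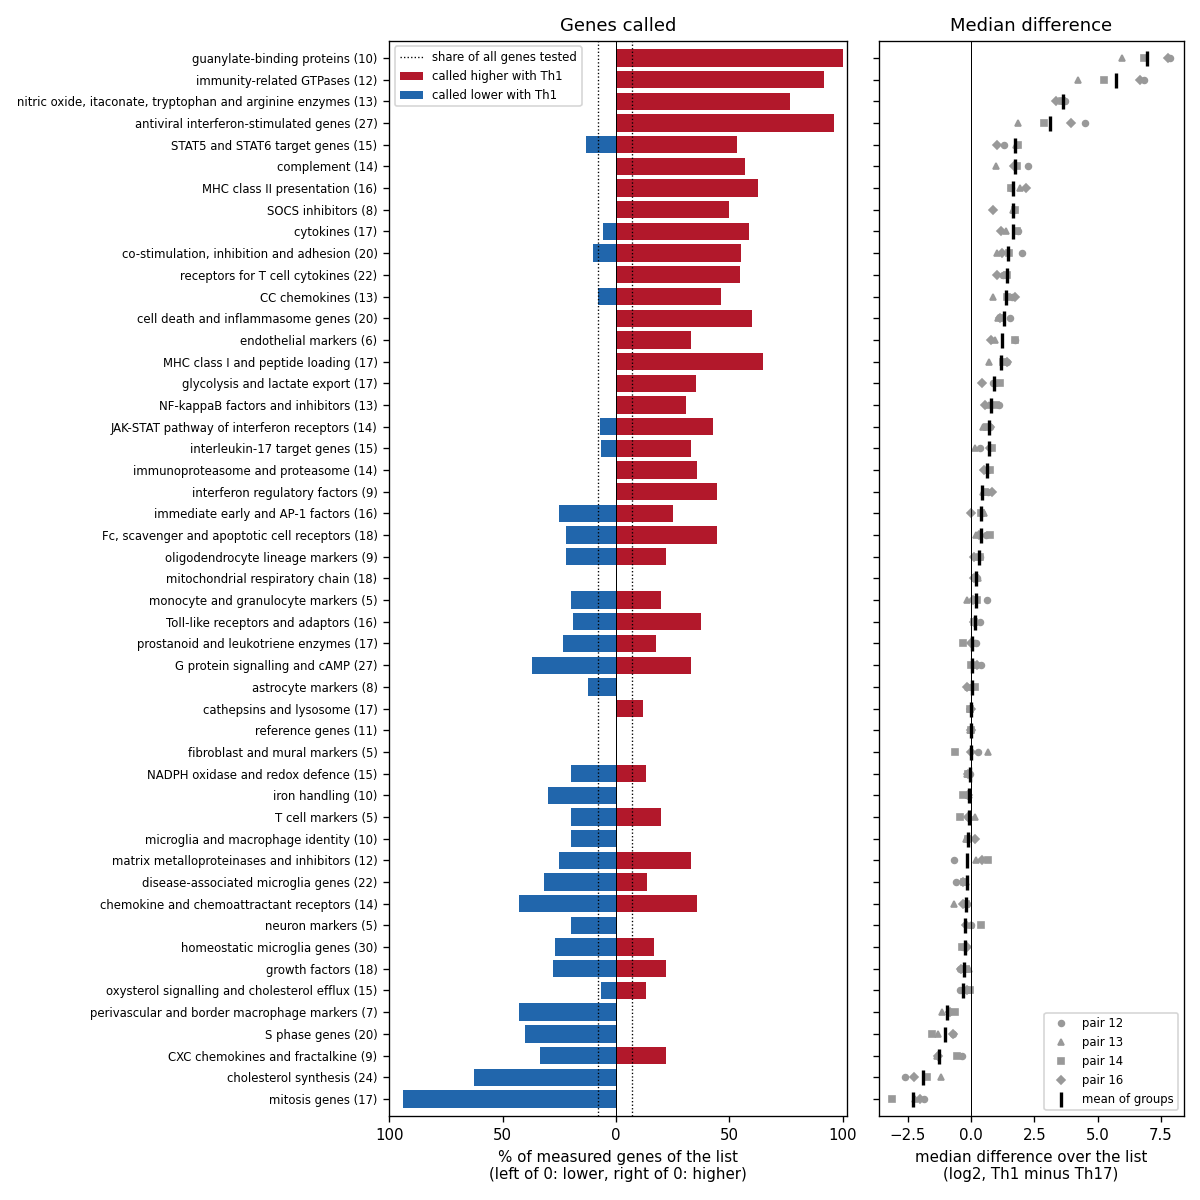
Left, the share of measured genes of each list (number in brackets) that was called higher (red, right of 0) or lower (blue, left of 0) with Th1 supernatant, with dotted lines at the shares over all genes tested, 6.89% and 7.91%. Right, the median difference of each list in log2, Th1 minus Th17, for the group means (black) and for each same-numbered pair (grey), from 6.96 for guanylate-binding proteins to -2.29 for mitosis genes.

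The receivers of interferon-gamma were not higher with Th1 supernatant. Ifngr1, the ligand-binding chain, differed by -0.96 ± 0.20 and missed the 2-fold threshold (adjusted p = 0.00234), and Ifngr2 differed by 0.14 ± 0.12 (adjusted p = 0.356). Ifnar1, a chain of the type I interferon receptor, was lower (-1.27 ± 0.31), though its other probes differed by -0.36 and -0.47 and 16 of the 23 alternative settings lost this call. Of 14 measured genes of the JAK-STAT pathway 6 were higher, among them the kinases Jak2, Jak3 and Tyk2 and the factors Stat2 and Stat3. Stat2 gave 15.26, 14.94, 15.32 and 14.66 on the Th1 arrays and 11.85, 13.20, 12.44 and 11.45 on the Th17 arrays, a difference of 2.81 ± 0.34 without overlap of the groups.

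Of 9 measured interferon regulatory factors 4 were higher: Irf7 (5.07 ± 0.78), Irf1 (3.66 ± 0.25), Irf8 (1.32 ± 0.12) and Irf2 (1.24 ± 0.26). Irf1, a factor that acts early in the interferon response, lay at 17.48, 17.31, 17.41 and 17.40 with Th1 and 13.34, 14.38, 13.86 and 13.35 with Th17 supernatant, so that the lowest Th1 array was above the highest Th17 array by more than the whole range of either group. Of 8 measured SOCS inhibitors, which block cytokine receptor signalling as feedback, Socs1, Cish, Socs3 and Socs2 were higher. Socs1, the feedback inhibitor of the interferon-gamma receptor, lay at 15.36, 16.10, 16.23 and 15.52 and 7.99, 8.87, 8.34 and 7.41, a difference of 7.65 ± 0.41 (adjusted p = 1.40e-07). Socs3, the inhibitor of receptors that signal through gp130, lay at 15.90, 16.16, 16.88 and 16.30 and 12.19, 12.49, 12.87 and 11.30 and was at 10.01 to 11.40 on the untreated arrays, so its Th17 arrays sat between the other groups with 1 of them inside the untreated range.

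The guanylate-binding proteins and immunity-related GTPases, interferon-induced GTPases that gather on pathogen vacuoles, rose almost without exception. All 10 measured guanylate-binding proteins were called higher (median 6.96), and so were 11 of 12 measured immunity-related GTPases (median 5.71). Gbp4 lay at 15.40, 15.29, 15.45 and 15.62 on the Th1 arrays and at 3.91, 7.27, 4.85 and 3.91 on the Th17 arrays, a difference of 10.46 ± 0.65 (adjusted p = 4.17e-07). Only 1 of its Th17 arrays was well above background. Gbp5 differed by 8.31 ± 0.44, Gbp6 by 8.78 ± 0.65 and Gbp2 by 7.55 ± 0.75. Gm4841, an immunity-related GTPase, was not well above background on any Th17 or untreated array and was at least 445-fold higher with Th1 supernatant. Tgtp2 lay at 17.46, 17.53, 17.71 and 17.27 and 6.76, 12.55, 9.30 and 7.48, and its difference of 8.47 ± 1.03 became 9.65 without Th17 13. A second, dimmer probe of Tgtp2 differed by 5.82. Tgtp1 and Tgtp2, and some guanylate-binding proteins, are close copies whose probes may share signal.

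**Figure D3:**
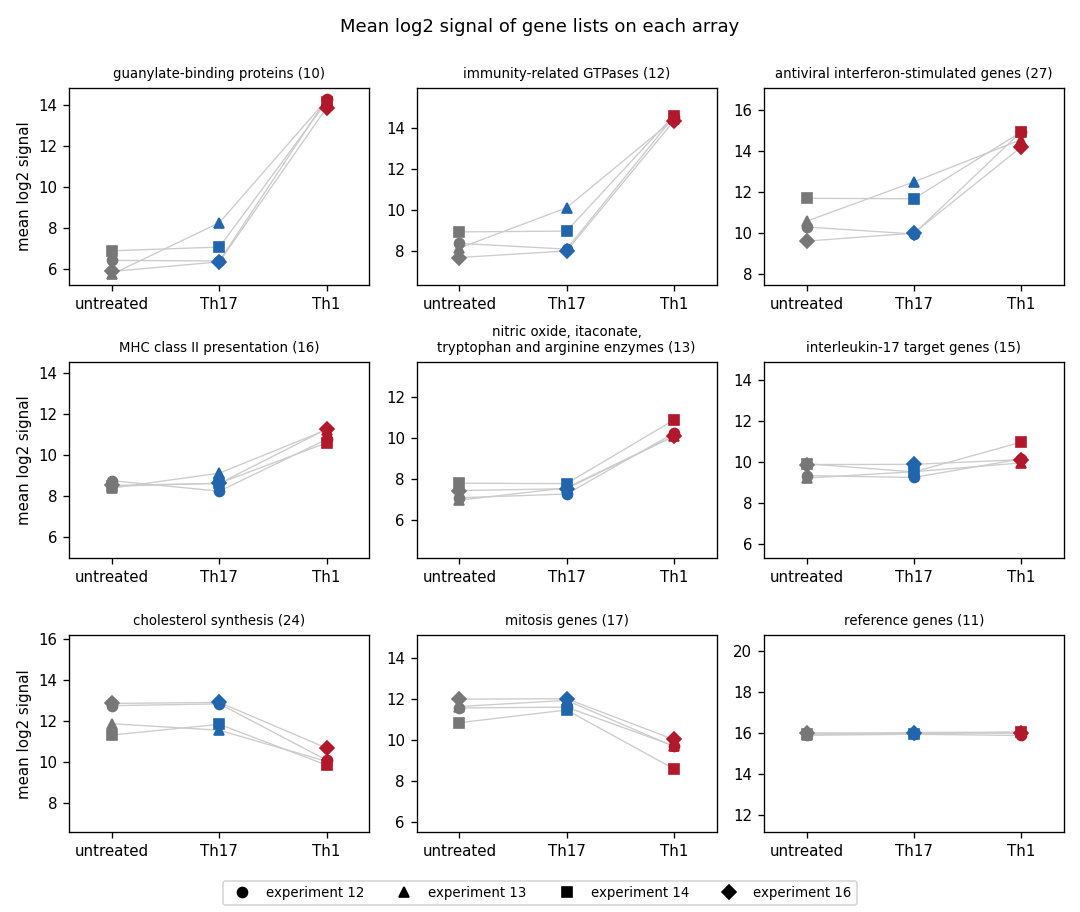
Mean log2 signal over the measured genes of 9 lists (number in brackets) on each array, with lines joining arrays of equal experiment number and y axes of equal span. The Th1 arrays stand above all others for guanylate-binding proteins (13.85 to 14.28) and below all others for mitosis genes (8.58 to 10.01), and the array Th17 13 is the highest Th17 array in the 3 upper plots.

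The promoters of these GTPases were searched for the letters of GAS and ISRE and are shown because both families rose together. The GAS letters searched were TTCNNNGAA and the ISRE letters GAAANNGAAA, on both strands of the 250 bases before each transcription start in a RefSeq promoter table (GRCm38.p6); matches of the same motif may overlap. Bases 120 to 11 before the start are printed for all 12 genes of both families that were called higher and had an entry, with the matches in capitals.
Igtp (chr11:58199436-58199545, plus strand): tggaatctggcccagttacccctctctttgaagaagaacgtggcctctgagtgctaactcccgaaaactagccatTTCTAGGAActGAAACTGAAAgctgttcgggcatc
Irgm2 (chr11:58214857-58214966, plus strand): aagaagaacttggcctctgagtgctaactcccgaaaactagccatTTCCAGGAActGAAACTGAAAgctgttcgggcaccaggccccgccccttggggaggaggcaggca
Tgtp1 (chr11:48992257-48992366, minus strand): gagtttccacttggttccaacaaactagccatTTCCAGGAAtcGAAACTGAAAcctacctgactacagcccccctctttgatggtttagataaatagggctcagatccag
Tgtp2 (chr11:49064223-49064332, minus strand): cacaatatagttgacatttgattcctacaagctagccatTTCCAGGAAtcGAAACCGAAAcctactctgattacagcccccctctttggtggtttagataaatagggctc
Irgm1 (chr11:48871431-48871540, minus strand): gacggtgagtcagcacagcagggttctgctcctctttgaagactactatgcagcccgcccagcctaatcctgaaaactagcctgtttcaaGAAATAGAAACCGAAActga
Gm12250 (chr11:58183723-58183832, plus strand): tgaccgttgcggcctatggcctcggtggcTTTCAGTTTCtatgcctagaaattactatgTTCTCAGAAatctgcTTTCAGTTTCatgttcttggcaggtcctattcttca
Ifi47 (chr11:49076467-49076576, plus strand): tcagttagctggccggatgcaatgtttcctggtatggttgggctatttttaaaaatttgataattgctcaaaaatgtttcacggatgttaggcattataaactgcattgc
Gbp2 (chr3:142620543-142620652, plus strand): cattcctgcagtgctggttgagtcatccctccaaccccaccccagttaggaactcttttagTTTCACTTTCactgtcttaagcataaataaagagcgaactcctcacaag
Gbp2b (chr3:142594727-142594836, plus strand): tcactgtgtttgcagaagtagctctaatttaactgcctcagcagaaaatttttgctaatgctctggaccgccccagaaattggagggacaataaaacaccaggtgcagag
Gbp3 (chr3:142559924-142560033, plus strand): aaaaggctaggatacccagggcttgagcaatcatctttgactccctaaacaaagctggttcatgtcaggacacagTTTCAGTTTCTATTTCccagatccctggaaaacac
Gbp5 (chr3:142496814-142496923, plus strand): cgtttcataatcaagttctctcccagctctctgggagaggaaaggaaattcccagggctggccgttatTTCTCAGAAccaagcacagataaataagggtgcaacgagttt
Gbp7 (chr3:142530216-142530325, plus strand): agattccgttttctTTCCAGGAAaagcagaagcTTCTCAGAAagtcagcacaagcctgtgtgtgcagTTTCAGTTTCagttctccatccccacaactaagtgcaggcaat
In Igtp, Irgm2, Tgtp1 and Tgtp2 a GAS match is followed by an ISRE match on the same strand after 2 bases. In Igtp the GAS match spans bases 45 to 37 before the start and in Tgtp1 bases 88 to 80. Gbp7 holds 2 GAS matches and 1 ISRE match and Irgm1 holds 2 overlapping ISRE matches. Gbp2b holds no match in the printed bases and 1 ISRE match farther out, at bases 137 to 128, and Gbp5 holds 1 GAS match in them and another GAS and 1 ISRE match farther out. Ifi47 holds neither motif in the 250 bases.

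**Figure D4:**
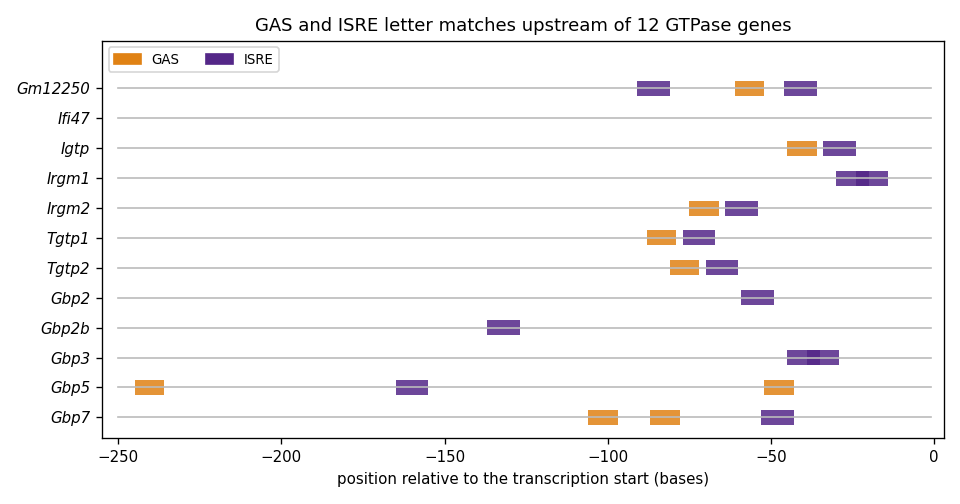
Positions of GAS matches (orange) and ISRE matches (purple) in the 250 bases upstream of the transcription start of 12 GTPase genes called higher with Th1 supernatant; overlapping matches appear darker. Of the 12 genes 11 hold at least 1 match and Ifi47 holds none.

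Among all promoters listed, 2.98% held the ISRE letters, and over the promoters of genes tested 2.89% did. The share was 8.48% for genes higher and 1.55% for genes lower with Th1 supernatant, and 17.9% (24 of 134 promoters) for genes more than 16-fold higher. Of the promoters of measured guanylate-binding proteins 5 of 6 held them, of immunity-related GTPases 6 of 8 and of antiviral genes 8 of 23. The GAS letters stood in 7.02% of all promoters and 6.22% of those of genes tested, with 8.11% for genes higher, 5.67% for genes lower and 11.9% (16 of 134) for genes more than 16-fold higher. A kappaB search (GGGNNNNNCC) matched 45.8% of all promoters, 58.2% of those of genes tested, 58.0% for genes higher and 59.6% for genes lower. These matches are letters in a window and say nothing on binding.

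Antiviral genes of the kind that interferons induce rose nearly as a whole: 26 of 27 measured members were higher and the median was 3.12. Oasl1 and Oas3 of the oligoadenylate synthetase family differed by 7.18 ± 0.97 and 5.70 ± 0.79. Isg15, a ubiquitin-like protein, lay at 18.33, 18.10, 18.32 and 17.48 with Th1 and at 11.97, 15.42, 14.32 and 12.19 with Th17 supernatant. The groups did not overlap, but the Th17 arrays of experiments 13 and 14 were well above the other Th17 arrays, and untreated 14 also lay high at 14.56. The list varied with the experiment: its median was 4.51, 1.84, 2.89 and 3.94 in the 4 pairs, and without the arrays of experiment 12 only 13 members were called. Ifit1 (4.58 ± 1.06, adjusted p = 0.00469) lost its call under 9 settings and Rsad2 (4.40 ± 0.92, adjusted p = 0.00258) under 4.

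Genes of both arms of antigen presentation were higher. Of 17 measured genes of MHC class I and peptide loading 11 were called higher, with the peptide transporter subunit Tap1 at 3.73 ± 0.36 and the class I transactivator Nlrc5 at 2.99 ± 0.32 (second probe 1.64), while the light chain B2m differed by 0.54 ± 0.15 and was not called. Among 14 proteasome genes the called ones were the 3 immunoproteasome subunits Psmb9 (2.55 ± 0.36), Psmb8 (2.29 ± 0.29) and Psmb10 (1.98 ± 0.19) and the activator subunits Psme1 (1.92 ± 0.28) and Psme2 (1.36 ± 0.21). The constitutive subunit Psmb5 differed by 0.17 ± 0.11 and was not called. H2-Q10, H2-K1 and H2-Q7 are near copies of other class I genes, so their single values are uncertain.

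Of 16 measured genes of MHC class II presentation 10 were higher. H2-Aa, the alpha chain of I-A, lay at 11.73, 12.18, 10.69 and 12.68 with Th1 and 3.91, 7.42, 5.32 and 5.39 with Th17 supernatant, a difference of 6.31 ± 0.73. H2-Eb1 differed by 5.35 ± 0.60, H2-Ab1 by 5.01 ± 0.59 and the invariant chain Cd74 by 4.79 ± 0.50. The class II transactivator Ciita differed by only 1.55 ± 0.34 (adjusted p = 0.00333) and lost its call under 8 of the 23 settings. For H2-Aa and H2-Ab1 the order of experiments among the Th1 arrays was the same, with experiment 16 highest and 14 lowest.

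Ligands that T cells read were called higher more often than lower. Of 20 measured co-stimulatory, inhibitory and adhesion genes 11 were higher and 2, Cd83 and Cd48, lower. Over all genes tested 6.89% were higher and 7.91% lower, so the lower calls stood near the share over all genes. Cd40 lay at 15.01, 14.78, 14.98 and 14.55 and 6.18, 8.64, 7.14 and 7.77, a difference of 7.40 ± 0.48. The inhibitory ligands Cd274 (PD-L1) and Pdcd1lg2 (PD-L2) differed by 5.24 ± 0.23 and 6.03 ± 0.31, and Cd86 by 4.08 ± 0.15, whereas its partner ligand Cd80 differed by -0.45 ± 0.20 and was not called. Cd83 differed by -1.25 ± 0.18 and Cd48 by -1.03 ± 0.11, with calls that 2 and 7 settings lost.

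**Figure D5:**
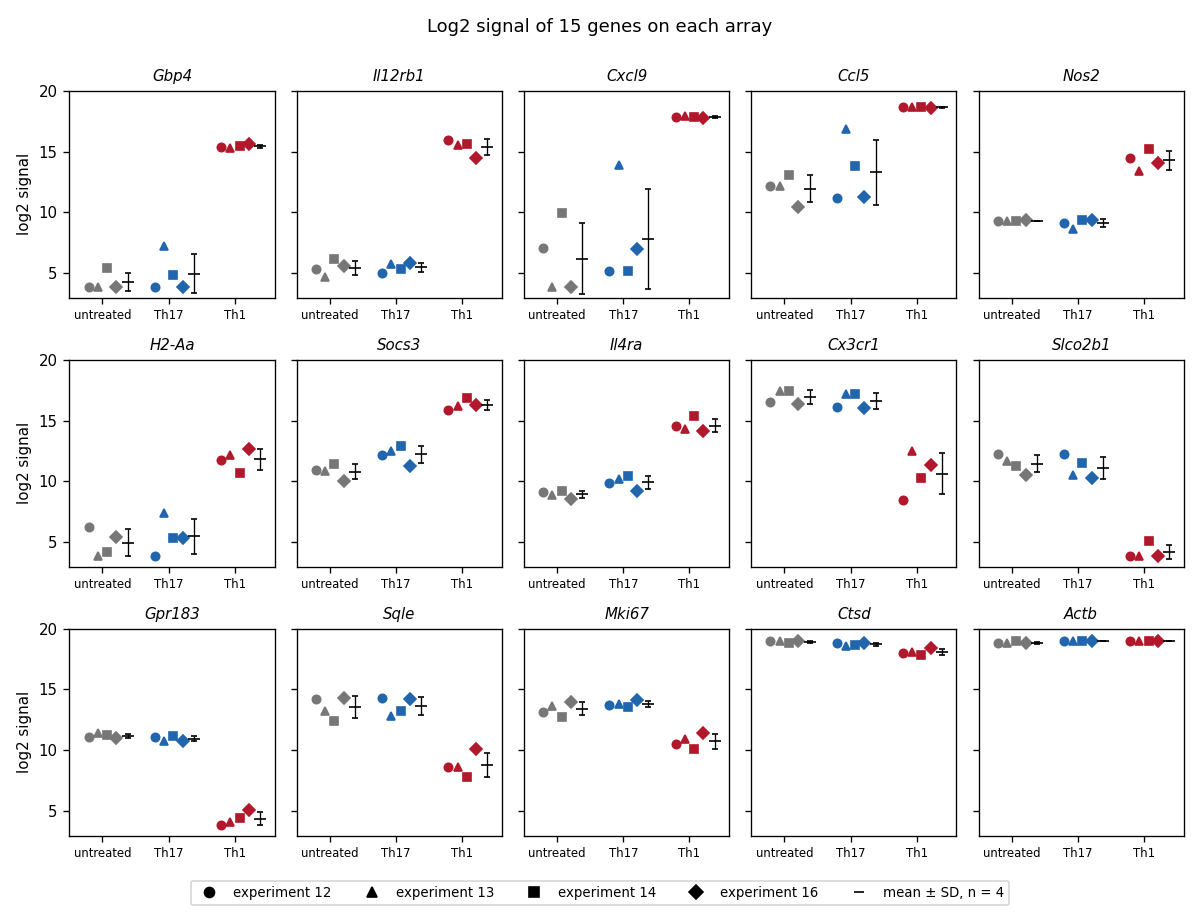
Log2 signal of 15 genes on each of the 12 arrays, by group (x axis), with experiments as symbols and the mean ± SD of 4 arrays beside them. The Th1 arrays lie apart from the Th17 arrays for all genes shown except Actb, and most Th17 arrays lie among or near the untreated ones. Th17 13 lies well above them for some genes, as for Cxcl9 at 13.89 against at most 9.92 untreated.

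Chemokine genes were called in both directions. Cxcl9, a ligand of Cxcr3, lay at 17.86, 17.92, 17.85 and 17.72 with Th1 and at 5.23, 13.89, 5.17 and 7.02 with Th17 supernatant. The groups did not overlap, yet its difference of 10.01 ± 1.83 (adjusted p = 0.00108) averages 3 Th17 arrays of low signal and Th17 13 far above them, and it was 12.03 without Th17 13. Cxcl10, another ligand of Cxcr3, lay at 18.08, 18.07, 18.11 and 18.23 and 9.57, 12.83, 13.88 and 10.03 (6.55 ± 1.09). Of 9 measured CXC chemokines and fractalkine only these 2 were higher.

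Cxcl1, which attracts neutrophils, was lower at -3.49 ± 0.88, with a call that 13 of the 23 settings lost. Cxcl14 lay at 10.71, 11.63, 11.19 and 11.62 and 14.17, 14.99, 14.58 and 14.39 (-3.24 ± 0.26), and platelet factor Pf4 at -1.48 ± 0.22. With the experiment as a block 5 instead of 3 members of this list were lower.

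Of 13 measured CC chemokines Ccl8, Ccl24, Ccl5, Ccl7, Ccl12 and Ccl2 were higher and Ccl3 was lower. Ccl2 lost its call under 6 settings. Ccl8, a ligand of several monocyte and T cell receptors, lay at 17.37, 16.97, 17.24 and 16.89 and 6.57, 11.74, 9.65 and 8.17 (8.09 ± 0.97, and 8.99 without Th17 13). Ccl24, which attracts eosinophils, lay at 14.61, 15.19, 14.79 and 14.10 and 6.72, 6.64, 7.22 and 6.09, so that the Th17 arrays were within 1.1 log2 units of each other and Th17 13 did not stand out (8.0 ± 0.32). Ccl5, a T cell and monocyte chemokine, lay at 18.64, 18.68, 18.64 and 18.60 and 11.17, 16.84, 13.84 and 11.29 and differed by 5.36 ± 1.05. Ccl3 differed by -1.81 ± 0.31 and its neighbour Ccl4 by -0.52, which was not called.

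Chemokine and chemoattractant receptors moved in both directions: 5 of 14 measured were higher (among them Ccr1, Ccrl2, Fpr2 and Cmklr1) and 6 lower (Cx3cr1, Cxcr4, Cxcr3, Ccr3, C5ar1 and C3ar1). Ccr1, a receptor of Ccl5, differed by 4.45 ± 0.34. Cx3cr1, the fractalkine receptor that marks microglia, lay at 8.46, 12.47, 10.29 and 11.31 with Th1 and at 16.14, 17.18, 17.15 and 15.99 with Th17 supernatant, a difference of -5.98 ± 0.70. Its Th1 arrays spread over 4 log2 units, with experiment 12 lowest, and none reached a Th17 array. Cxcr4 differed by -3.79 ± 0.53 and Cxcr3 by -3.57 ± 0.46. Fpr2 (2.71 ± 0.67) lost its call under 12 settings.

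Of 17 measured cytokines 10 were higher and Il16 was lower, with a call that 10 settings lost. Tnfsf10, the death ligand TRAIL, differed by 7.35 ± 0.70, the interleukin-1 receptor antagonist Il1rn by 4.41 ± 0.38 and the interleukin-18 binding protein Il18bp by 4.09 ± 0.44. Il1a was not above background with Th17 supernatant and was at least 13.3-fold higher with Th1 supernatant. Il1b lay at 11.27, 11.79, 15.28 and 9.83 and 9.42, 11.83, 14.19 and 9.75; the groups overlapped (0.75 ± 1.56, adjusted p = 0.73), with experiment 14 highest in both groups. Tnf (1.52 ± 0.36, adjusted p = 0.00532) lost its call under 11 settings. Il6 was not well above background on any Th17 array and Il10 differed by -0.96 ± 0.45, and neither was called.

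Among receptors for T cell cytokines 12 of 22 measured were higher and none lower. Il12rb1, a chain shared by the receptors of interleukin-12 and interleukin-23, lay at 15.96, 15.50, 15.63 and 14.46 with Th1 and 4.99, 5.78, 5.34 and 5.82 with Th17 supernatant, a difference of 9.90 ± 0.36 (adjusted p = 6.77e-09). Its second probe differed by 6.22. The partner chains Il12rb2 and Il23r differed by 1.81 and 2.13, the common gamma chain Il2rg by 2.61 ± 0.27, and the shared receptor chain of interleukin-3, interleukin-5 and GM-CSF, Csf2rb, by 2.16 ± 0.17. Il4ra, the interleukin-4 receptor chain, lay at 14.54, 14.28, 15.36 and 14.17 and 9.83, 10.20, 10.48 and 9.20 against 9.12, 8.87, 9.21 and 8.54 on untreated arrays, so 3 of its Th17 arrays were above all untreated arrays. Its second probe differed by 2.23.

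The interleukin-17 receptor was measured in both groups. Il17ra lay at 8.74, 8.32, 9.19 and 9.24 with Th1 and 8.95, 8.79, 9.47 and 9.25 with Th17 supernatant and Il17rc at 7.76, 7.43, 7.69 and 8.55 and 6.80, 7.16, 6.76 and 7.63, and neither was called. Of 15 measured genes known as targets of interleukin-17 in other cells, the call went toward Th17 supernatant for Cxcl1 alone and toward Th1 supernatant for Ccl7, Mmp13, Ccl2, Tnfaip3 and Cebpb. The typical targets Lcn2 and Nfkbiz differed by -0.01 ± 0.30 and -0.97 ± 0.43 and were not called. The Th17 and untreated arrays overlapped for all 15. This is near the share over all genes tested, of which only 0.53% had Th17 above and 0.444% Th17 below untreated. With the experiment as a block 3 targets were lower and 5 higher, and without Th17 12 only 3 were higher.

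Genes downstream of STAT5 and STAT6, the factors used by interleukin-4 and the common gamma chain receptors, were higher for 8 of 15 measured and lower for Il1rl1 and Myc. The rises included Ccl24, Socs1, Pdcd1lg2 and Cish (4.62 ± 0.76). Arg1, the arginase that competes for the substrate of nitric oxide synthase, lay at 7.79, 8.87, 8.35 and 9.25 and 3.91, 3.91, 3.91 and 4.70 and was above background on 1 Th17 array. Il1rl1, the interleukin-33 receptor, differed by -4.12 ± 0.51, although its second probe differed by only -0.45. Of 13 NF-kappaB genes the inhibitors Nfkbie, Bcl3, Tnfaip3 and Nfkbib were higher, and Nfkb1 itself differed by 0.24 ± 0.15.

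Of 16 immediate early and AP-1 factors 4 were higher and 4 lower. The BATF factors Batf2 (6.56 ± 0.30), Batf (2.46 ± 0.15) and Batf3 (1.88 ± 0.26) and Maff were higher, Maff with a call that 13 of the 23 settings lost. Egr1 (-2.62 ± 0.36), Fos (-2.34 ± 0.53), Nr4a1 and Fosb were lower. Only 1 or 2 of them were lower without Th1 12, Th1 13, Th17 13, Th17 14 or any 1 of the experiments. The same held with no filter on dim probes and with normexp background. Nr4a1 lost its call under 14 settings.

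Enzymes of nitric oxide, itaconate, tryptophan and arginine metabolism rose in 10 of 13 measured cases, with a median of 3.62 (3.26 with genes below background at their bound) and pair medians of 3.36 to 3.73. Acod1, which makes itaconate, lay at 17.44, 17.33, 17.51 and 17.56 and 9.68, 13.09, 12.32 and 11.28 (5.87 ± 0.65). Nos2, the inducible nitric oxide synthase, lay at 14.50, 13.41, 15.25 and 14.04 and 9.17, 8.63, 9.40 and 9.38 (5.16 ± 0.32), and unlike the GTPases it was lowest on Th17 13 among the Th17 arrays. Ido1 was at least 4.83-fold higher, with 1 Th17 array lacking a value.

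Lipid mediator genes were mixed, with 3 of 17 higher and 4 lower. Ptgs2, the inducible cyclooxygenase, differed by 6.55 ± 1.07 and Pla2g4a, which frees its substrate, by 1.88 ± 0.26. Hpgd, which breaks prostaglandins down, lay at 6.31, 7.89, 10.09 and 8.11 and 14.63, 14.03, 14.75 and 13.84, a difference of -6.21 ± 0.68. The receptor Ptger2 was higher by 1.39, and Alox5, Hpgds and Alox5ap were lower at -2.69, -1.25 and -1.02. Alox5ap lost its call under 7 settings.

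In energy and redox metabolism 6 of 17 glycolysis genes were higher and none lower (median 0.89). Pfkp, a phosphofructokinase, differed by 2.97 ± 0.16, Hif1a by 1.92 ± 0.22 and the hexokinases Hk2 and Hk3 by 1.84 ± 0.30 and 1.77 ± 0.27. Of 15 redox genes Sod2 (2.15 ± 0.22) and Prdx5 (1.66 ± 0.23) were higher, and the Nrf2 targets Nqo1 (-3.04 ± 0.56), Srxn1 (-1.93 ± 0.38) and Txnrd1 (-1.06 ± 0.26) were lower, Txnrd1 with a call that 13 settings lost. The lower calls of that list fell to 0 without the arrays of experiment 12 or of experiment 16. Over all genes tested 6.89% were higher and 7.91% lower. Of 10 iron genes Slc40a1, the iron exporter, was lower at -3.76 ± 0.51, as were Hfe and the transferrin receptor Tfrc.

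Of 20 genes of cell death and the inflammasome 12 were higher and none lower. They included Mlkl (4.58 ± 0.36) and Ripk3 (1.87 ± 0.22) of necroptosis, the death receptor Fas (2.68 ± 0.58) and Casp1 (1.14 ± 0.12), of which Fas lost its call under 7 settings. Of 16 Toll-like receptor genes 6 were higher, led by Tlr12, a receptor of parasite profilin, at 15.18, 15.01, 14.78 and 14.50 with Th1 and 4.98, 8.17, 6.31 and 6.25 with Th17 supernatant (8.44 ± 0.62). Cd14, the co-receptor of lipopolysaccharide, Tlr13 and Tlr8 were lower, with Cd14 at 12.51, 12.71, 14.27 and 13.54 and 15.99, 16.67, 16.62 and 16.26 (-3.13 ± 0.38), while Tlr4 differed by 0.38 ± 0.23 and was not called. The calls of Tlr11 and Tlr8 were lost under 17 settings each.

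Of 18 uptake receptors 8 were higher and 4 lower (Gas6, Trem2, Cd36 and Scarb1). The Fc receptor Fcgr4 lay at 17.52, 17.16, 17.41 and 17.07 and 12.30, 13.83, 12.55 and 12.01 (4.62 ± 0.37), and the apoptotic cell receptors Timd4, Mertk and Axl differed by 4.36 ± 0.46, 2.21 ± 0.16 and 1.72 ± 0.26. Gas6, the ligand of Mertk and Axl, went the other way at -2.79 ± 0.16, as did the lipid receptor Trem2 at 15.46, 15.14, 15.05 and 16.21 and 18.05, 17.75, 17.74 and 17.80 (-2.37 ± 0.22). Of 14 complement genes 8 were higher and none lower, among them Cfb (6.92 ± 0.61), Serping1 (7.32 ± 0.44) and C4b (3.85 ± 0.43), while C1qa differed by 0.70 ± 0.19 and was not called. C3 (2.75 ± 0.70, adjusted p = 0.00813) lost its call under 13 settings.

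Genes that define resting microglia were called in both directions. Of 30 measured 8 were lower, 5 higher and 17 not called, with a median of -0.26. Over all genes tested 7.91% were lower and 6.89% higher. The mean level over the list was 11.64 to 11.80 with Th1 and 12.26 to 12.71 with Th17 supernatant, without overlap. It was 12.30 to 12.79 on untreated arrays, and the pair medians were -0.33, -0.23, -0.37 and -0.17. Slco2b1, an organic anion transporter, lay at 3.91, 3.91, 5.08 and 3.91 with Th1 and 12.21, 10.51, 11.50 and 10.25 with Th17 supernatant, at least 97.2-fold lower on its brightest probe, and its other probe differed by -5.40. Gpr183, a receptor for oxysterols, lay at 3.91, 4.09, 4.49 and 5.12 and 11.08, 10.74, 11.17 and 10.80, a difference of -6.55 ± 0.23 (adjusted p = 5.00e-09). Tmem119 differed by -2.05 ± 0.48 with a call that 8 settings lost, and Fcrls by -2.52 ± 0.35. The higher members included Adora3 at 3.1, P2ry13 at 2.62, P2ry12 at 1.20 and Entpd1 at 1.91, the last with a call that 8 settings lost. Sall1 differed by 0.72 and was not called.

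Of 22 genes known from disease-associated microglia 7 were lower and 3, Cst7, Csf1 and Axl, higher. Cst7, a cystatin, lay at 16.08, 15.72, 15.91 and 15.69 and 8.57, 11.83, 9.48 and 10.18 (5.83 ± 0.55). Igf1 (-2.32 ± 0.14) and Cd9 (-2.32 ± 0.14) were lower, and Apoe and Spp1 differed by -0.02 ± 0.08 and 0.15 ± 0.33 without a call. The list held large differences of both signs, and its median was -0.17.

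The promoters of the 3 largest rises and 3 largest falls that had an entry in the table are printed over the 250 bases before the start, with GAS or ISRE matches in capitals.
Cxcl9 (chr5:92328080-92328329, minus strand): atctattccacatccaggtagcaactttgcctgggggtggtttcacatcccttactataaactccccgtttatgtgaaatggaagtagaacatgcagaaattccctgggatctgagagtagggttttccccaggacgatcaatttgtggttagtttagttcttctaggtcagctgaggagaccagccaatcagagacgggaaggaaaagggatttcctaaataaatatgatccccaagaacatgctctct
Plbd1 (chr6:136661894-136662143, minus strand): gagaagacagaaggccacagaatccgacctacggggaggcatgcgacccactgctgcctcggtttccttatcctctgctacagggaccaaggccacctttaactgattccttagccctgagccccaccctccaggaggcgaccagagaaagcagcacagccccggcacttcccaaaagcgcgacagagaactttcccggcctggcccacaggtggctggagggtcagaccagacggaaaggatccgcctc
Serpina3f (chr12:104214294-104214543, plus strand): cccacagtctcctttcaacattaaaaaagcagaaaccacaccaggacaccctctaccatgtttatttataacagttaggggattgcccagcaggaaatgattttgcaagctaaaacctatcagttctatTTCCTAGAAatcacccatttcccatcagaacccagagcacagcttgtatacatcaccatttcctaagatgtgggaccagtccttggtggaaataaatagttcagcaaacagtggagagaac
Slco2b1 (chr7:99711341-99711590, minus strand): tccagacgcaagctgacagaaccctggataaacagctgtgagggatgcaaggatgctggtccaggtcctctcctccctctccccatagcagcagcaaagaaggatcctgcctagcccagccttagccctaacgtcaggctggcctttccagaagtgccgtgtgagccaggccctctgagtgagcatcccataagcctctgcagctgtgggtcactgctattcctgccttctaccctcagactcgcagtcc
Gpr183 (chr14:121965194-121965443, minus strand): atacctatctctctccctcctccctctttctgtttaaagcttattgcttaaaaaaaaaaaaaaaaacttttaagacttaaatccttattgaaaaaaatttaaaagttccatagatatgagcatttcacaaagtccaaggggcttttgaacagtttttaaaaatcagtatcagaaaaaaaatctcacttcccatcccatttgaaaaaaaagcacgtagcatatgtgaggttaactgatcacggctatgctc
Cmbl (chr15:31568583-31568832, plus strand): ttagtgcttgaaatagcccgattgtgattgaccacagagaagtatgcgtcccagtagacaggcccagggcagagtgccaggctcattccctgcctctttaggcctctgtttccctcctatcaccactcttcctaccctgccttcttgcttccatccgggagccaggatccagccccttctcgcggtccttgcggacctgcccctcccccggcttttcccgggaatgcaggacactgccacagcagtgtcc
Serpina3f holds 1 GAS match, at bases 121 to 113 before the start. The windows of the other 5 hold neither set of letters. Serpina3f and Slco2b1 have more than 1 start in the table and the first is shown.

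Cholesterol synthesis had the lowest list median after mitosis among the 49 lists. Of 24 measured genes 15 were lower and none higher, the median was -1.91 and the pair medians were -2.63, -1.17, -1.76 and -2.25. Sqle, the squalene epoxidase, lay at 8.61, 8.60, 7.80 and 10.12 with Th1 and 14.33, 12.86, 13.22 and 14.23 with Th17 supernatant, a difference of -4.88 ± 0.55 (adjusted p = 3.62e-05). Idi1 differed by -3.67 ± 0.51 and Cyp51 by -3.91 ± 0.57. With the experiment as a block 21 genes of the list were lower, and without the arrays of experiment 12 there were 8.

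In both groups these genes also followed the experiment: the mean over the list was 10.07, 10.01, 9.83 and 10.66 on the Th1 arrays and 12.82, 11.53, 11.82 and 12.89 on the Th17 arrays. Experiments 12 and 16 were thus the highest Th17 arrays, and untreated arrays 12 and 16 were the highest untreated arrays, at 12.73 and 12.84. Of 15 genes of oxysterol signalling and cholesterol efflux Ch25h and Abcg1 were higher and Gpr183 lower. These few calls are near the shares over all genes tested, 6.89% higher and 7.91% lower. Ch25h, which makes the precursor of the Gpr183 ligand, differed by 3.78 ± 0.82, the exporter Abcg1 by 2.57 ± 0.28, and its partner Abca1 by -0.62 ± 0.24 without a call. The call of Ch25h was lost under 5 settings.

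Cell cycle genes were lower with Th1 supernatant. Of 17 mitosis genes 16 were lower, with a median of -2.29, and of 20 S phase genes 8 were lower, with a median of -1.04. Mki67, a marker of cycling cells, lay at 10.49, 10.93, 10.09 and 11.46 and 13.73, 13.82, 13.52 and 14.17, a difference of -3.07 ± 0.31 without overlap. Plk1 differed by -3.06 ± 0.39, Ccnb2 by -2.90 ± 0.31 and the ribonucleotide reductase subunit Rrm2 by -2.39 ± 0.46. Pcna differed by -0.88 ± 0.12, with an adjusted p of 1.18e-04 but less than a 2-fold difference. The S phase count was 11 with the experiment as a block, 5 without Th17 13, without Th1 14 or without experiment 16, and 2 without experiment 12 or experiment 13. The mitosis count stayed within 1.5 times of 16 in all settings.

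Of 18 growth factor genes 4 were higher (Pdgfc, Csf1, Wnt5b and Hgf) and 5 lower (Dkk2, Gdnf, Gdf15, Igf1 and Pdgfa). Pdgfc differed by 3.89 ± 0.48 and Csf1, the ligand of Csf1r, by 3.56 ± 0.45. Gdnf, a neurotrophic factor, differed by -3.41 ± 0.40 and was above background on 1 Th1 array. Gdf15 (-3.12 ± 0.82, adjusted p = 0.00951) and Hgf (1.16 ± 0.26, adjusted p = 0.00353) lost their calls under 15 and 11 settings.

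In G protein and cyclic AMP signalling 9 of 27 genes were higher and 10 lower. The leukotriene receptor Ltb4r1 lay at 11.47, 11.80, 12.89 and 12.43 and 4.65, 4.66, 4.45 and 4.72 (7.53 ± 0.30), and Htr7, a receptor for serotonin, rose by at least 39.8-fold. The sphingosine phosphate receptor S1pr1 lay at 6.33, 6.68, 6.86 and 7.04 and 11.96, 11.03, 11.40 and 10.75 (-4.56 ± 0.30). Adenylate cyclases diverged, with Adcy4 at 5.03 ± 0.33 and Adcy9 at -2.23 ± 0.18. Of 12 metalloproteinases and inhibitors Mmp25 (8.07 ± 0.47), Timp1 (6.16 ± 0.56), Mmp13 (4.56 ± 0.60) and Mmp14 (1.91 ± 0.23) were higher and Adamts1 (-2.51 ± 0.33), Timp2 (-2.12 ± 0.24) and Adam8 (-1.16 ± 0.18) lower, with a second Timp2 probe at -0.85.

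Some of the largest differences lay in none of these pathways. Plbd1, a phospholipase B relative, lay at 15.06, 15.55, 15.49 and 15.14 with Th1 and 3.91, 6.01, 5.93 and 6.26 with Th17 supernatant (9.78 ± 0.53), and the actin-binding calponin Cnn3 at 15.65, 15.75, 15.84 and 15.41 and 6.47, 5.84, 7.87 and 5.75 (9.18 ± 0.65). Serpina3f, a protease inhibitor, differed by 9.26 ± 0.72, the surface protein Ly6a by 9.14 ± 0.83 and the lysophospholipase Enpp2 by 8.67 ± 0.52. Clec9a, a receptor for dead cells, was above background only with Th1 supernatant, at least 230-fold higher.

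Among the largest falls Cmbl, a hydrolase, was at least 63.9-fold and the sulfotransferase Sult1a1 at least 27.5-fold lower. Stap1, a signalling adaptor, lay at 5.80, 5.96, 7.5 and 6.37 and 12.03, 12.25, 12.06 and 12.24 (-5.74 ± 0.31). The Wnt modulator Dkk2 differed by -5.20 ± 0.58, the kinase phosphatase Dusp4 by -5.09 ± 0.49, the glutathione transferase Gsta3 by -4.87 ± 0.75 and the small GTPase Rhoj by -4.83 ± 0.33. Mctp1 differed by -5.25 ± 0.27 with a second probe at -3.11. Asb10 differed by -5.37 ± 0.31 with a second probe at -3.22, and Itgb3, the integrin beta chain, by -5.56 ± 0.61 with a second probe at -1.21.

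A few called genes had Th17 arrays outside the untreated range, which is 0.53% (above) and 0.444% (below) over all genes tested. Among the genes higher with Th1 supernatant the Th17 arrays were all above the untreated arrays for 17 and all below for 4. Among those lower they were above for 5 and below for 9. The 4 rises with Th17 below untreated were Ctse, a cathepsin, H2ac1, Cyp4a31 and Tdpoz7. Ctse lay at 6.17, 6.81, 6.62 and 6.90 with Th1, 5.37, 5.44, 4.99 and 5.59 with Th17 and 6.07, 6.81, 6.43 and 6.30 without supernatant, so its Th1 and untreated arrays overlapped and the Th17 arrays were the low ones. The falls with Th17 above untreated and a symbol were Nhsl2, Nap1l1, Metap1d and Nudt16l1, and in each the lowest Th17 array exceeded the highest untreated array by under 0.01.

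The rises with Th17 above untreated were singled out after their values were seen. Cd38, an enzyme that consumes NAD, lay at 14.28, 14.31, 15.02 and 14.01 with Th1, 9.16, 9.80, 9.52 and 10.29 with Th17 and 8.45, 8.18, 8.12 and 9.0 without supernatant, a graded order with no overlap between neighbouring groups. Naaa, a lysosomal amidase, lay at 11.51, 12.69, 12.17 and 11.91 and 11.09, 11.19, 10.94 and 11.24 in the last 2 groups and at 17.03 to 17.36 with Th1 supernatant. Aoah, which deacylates lipopolysaccharide, and the receptor chain Il21r, the kinase Jak3 and the factor Batf followed the same order.

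Reference and respiratory chain genes gave no calls. Of 11 reference genes 0 were called by limma (median -0.01), with 3 (Hprt, Rplp0 and Ywhaz) at an adjusted p under 0.05. Gapdh differed by 0.10 ± 0.09 on its brightest probe and by 0.45 to 0.73 on its other probes, and Hprt differed by -0.54 ± 0.11. Actb lay at 18.96 on all 8 arrays. Quantile normalisation gives probes of equal rank the same value, so the equal Actb values do not measure stability. Of 18 respiratory chain genes 0 were called as well (median 0.21). Of 17 cathepsin and lysosome genes Ctsc (2.48 ± 0.27) and Ctsh (1.21 ± 0.15) were higher, near the share of 6.89% over all genes tested.

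Markers of other cell types that a glial culture could hold were examined over their whole lists. For astrocytes 1 of 8 measured was called (Fabp7, lower), and the mean level over the list was 6.93 to 8.01 with Th1 and 7.16 to 8.23 with Th17 supernatant, with Gfap at 4.92 to 7.63 and 4.64 to 7.36 and Slc1a2, Gja1 and Sox9 below the signal filter. For the oligodendrocyte lineage Mag and Cnp were higher and Cspg4 and Mbp lower of 9, for neurons Rbfox3 was lower of 5, and for fibroblasts and mural cells 0 of 5 were called. For endothelium Ly6c1 (7.49, 8.43 without Th17 13, and 0.94 on its second probe) and Vwf were higher of 6, with Cldn5 and Tek below the filter and Pecam1 at 6.64 to 6.97 and 6.26 to 6.45. For monocytes and granulocytes 1 of 5 was higher and Elane was lower, and for border macrophages Pf4, F13a1 and Ms4a7 were lower of 7, with Cd163 and Lyve1 below the filter. The calls of Mbp, Fabp7 and Elane were lost under 10, 9 and 9 of the 23 settings, and the dimmest Mbp probe differed by -0.48. Over all genes tested 6.89% were called higher and 7.91% lower, and these marker lists are short.

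For T cells Lck was higher and Cd28 lower of 5 measured markers, Cd3e lay at 9.65 to 10.37 and 9.71 to 10.48 and at 10.01 to 10.61 on untreated arrays, and Ifng, Il17a, Cd3d, Cd3g, Cd2 and Tbx21 were below the filter in this series. The mean level over the T cell list was 8.70 to 9.09 with Th1 and 9.19 to 9.75 with Th17 supernatant. The part of other cell types in the results above was not tested beyond these values.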

How the data were processed

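Total RNA of 12 microglia cultures was measured on 1-colour Agilent arrays. Per the file headers the authors extracted spot intensity with Agilent Feature Extraction 10.7.3.1, and the deposited intensity used here is the processed, background-corrected signal of each spot. The deposited value table holds log2 values that matched the scaled scanner values after centring of each probe (19912 probes, medians per array -0.225 to 0.18), and it served as an alternative only.

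Following the study's methods, spots of a probe were averaged by geometric mean, arrays were quantile-normalised, scaled to a 75th percentile of 1500 and floored at 15, and values were taken to log2. Outlier spots were left out. Probes well above background on at least 4 of 12 arrays were kept (24286 of 39429), and each gene was represented by its probe of highest mean signal, giving 19801 genes. Names came from matching the array's accessions to RefSeq, which gave a symbol to 13952 genes (70.5%). A limma 3.58.1 model (R 4.3.3) over all 12 arrays gave the group differences, with 9 residual degrees of freedom and Benjamini-Hochberg adjustment over all genes tested; the script was tested on simulated data. A gene was called at an adjusted p under 0.01 and over 2-fold. For a gene not above background in a whole group, the bound sets the brighter group's mean against the higher of the gene's own dim signal and each array's lowest signal well above background.

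Genes named are the 15 largest rises and falls that held in all 4 pairs, the key members and up to 4 largest called members in each direction of every list, and called genes whose Th17 arrays left the untreated range toward the opposite side, the 10 largest each. Members of lists with counts of 5 or fewer are named too. Values of some named genes are not reported here. The comparison and the gene lists were chosen with earlier results of these data known. Deviations from the group means correlated at 0.244, 0.357, 0.266 and 0.374 between Th1 and Th17 arrays of equal number. Each exceeded every correlation between unequal numbers, so the experiment number was taken to pair the arrays in the pair differences. The main limma fit held no term for the experiment. Its SE, adjusted p and calls are thus unpaired, and the experiment as a block was an alternative only. Alternatives covered the pairing, slide, filters, floor, scaling, background, detection flag, value table, probe choice and left-out arrays. The number of arrays limits the precision.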

Additional observations from a re-analysis of the deposited data

Results flagged for a closer look

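Among 371 groups of 4 arrays tested (185 named genes and 3 array measures, in Th1 and in Th17 arrays), 24 had 1 array set apart from the other 3 by more than Dixon's critical share of the range. For normally spread values chance flags about 1 group in 20, which does not hold for values at the floor. Where the other 3 arrays lie at 3.91, any array above the floor is flagged. This was so for Arg1, Cxcl1, Dkk2, Mmp25, Serpina3f, Slco2b1 and Timd4. Of the 24, 8 fell on Th17 13, 9 on Th1 arrays and 15 on Th17 arrays, and no cause was tested.

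On Th17 12 the log2 signal stood apart for Csf1 (6.05) and Plbd1 (3.91). On Th17 13 the log2 signal stood apart for Apoe (18.8), Cd80 (10.84), Cxcr3 (8.73), Il18bp (11.18), Mmp25 (6.1), Psme1 (15.63), Serpina3f (7.78) and Timd4 (5.71). On Th17 14 the log2 signal stood apart for Cd86 (11.03), Csf2rb (14.57) and Fas (10.04). On Th17 16 the log2 signal stood apart for Arg1 (4.7) and Ccr1 (4.76). On Th1 13 the log2 signal stood apart for Dkk2 (6.38). On Th1 14 the log2 signal stood apart for Cxcl1 (6.47), Cxcr4 (8.23), Fas (12.56), Gbp2 (18.18), Gdnf (5.86) and Slco2b1 (5.08). On Th1 16 the log2 signal stood apart for Psme1 (16.18) and Tnfsf10 (11.08). Apoe lay at 18.75 on the other Th17 arrays and Gbp2 at 18.24 to 18.25 on the other Th1 arrays, so both gaps are small.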

How the results depend on the processing

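Under the alternatives tried no called result changed direction. Genes called lower with Th1 supernatant numbered 954 with normexp background (968 higher) and 1027 to 1581 when the arrays of 1 experiment were left out (1070 to 1390 higher), the lowest without experiment 12. The causes were not tested. Normexp was run on the median spot signal, since the mean spot signal was not used here. With the replicate block (experiment number) 1439 genes were higher and 1793 lower. The block took the lower calls of CXC chemokines from 3 to 5, of interleukin-17 targets from 1 to 3 and of redox genes from 3 to 5, moved Slc2a1 to higher and Mcm2, Mmp9 and Hmox1 to lower. It changed no other call of a gene printed here and moved no other list count of 3 or more by over 1.5 times. Leaving out single arrays gave 1246 to 1450 higher and 1385 to 1682 lower genes. The share of probes above background differed by -2.45 to -0.18 percentage points. Of the named genes, 118 of 152 higher, 51 of 89 lower and 44 of 53 uncalled ones kept their call in all 23 settings. Lost calls are not stated above for every named gene. Without experiment 12 the calls fell from 6 to 3 for higher CC chemokines, from 4 to 2 for NF-kappaB genes, from 5 to 2 for higher interleukin-17 targets and from 5 to 3 for lower growth factors. Without experiment 13 higher interleukin-17 targets numbered 3. Signal near background limits the size of the largest differences, since values at the floor have no order.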
